A study of Solanum lycopersicum with 4 samples.

Results

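The genes described here are 64 named tomato genes whose signal was lower in ripe than in mature green fruit pericarp of both genotypes studied. They were chosen on these measured values. A gene had to carry a symbol in the annotation of the array, and the brightest probe set of the gene had to be at least 1.5-fold lower (log2 0.585) at the later stage in wild type and in AtJUB1-OX. Of 627 genes with a symbol, 85 met this cut-off, which is a background of 13.6%. A further 21 of these were set aside because the selection rule leaves out some single genes and the CAB, ACS, ACO, ETR, ERF, IAA, WRKY, expansin, XTH, TBG, lox and PR families, and 64 remained. Being lower at the later stage is therefore how the genes were picked and not a result. For comparison, 87 genes with a symbol were at least 1.5-fold higher at the later stage in both genotypes.

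Pericarp RNA of the variety Moneymaker was hybridized to the GeneChip Tomato Genome Array, with 1 array per genotype and stage and 4 in all. Wild type (WT) and AtJUB1-OX, which carries the 35S:AtJUB1-GFP transgene, were sampled as mature green (MG) fruits and at breaker+7 (B+7), which is 7 days after the first colour change. AtJUB1 is a NAC transcription factor of Arabidopsis, and the 35S promoter of a plant virus drives it in nearly all tissues. AtJUB1-OX is a single, strongly expressing transgenic line, so line and transgene cannot be told apart. There were no replicates, so differences were not tested and the variation between fruits is unknown. The values are the deposited log2 signals of probe sets, and each difference is a log2 difference between 2 arrays.

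Tomato pericarp changes from a green, photosynthetic and starch-holding tissue into a red and soft one during ripening. Chloroplasts become chromoplasts, lycopene accumulates, cell walls are taken apart and bitter steroidal glycoalkaloids are converted. Cell division has ended long before MG, and growth by cell expansion is nearly complete. Genes active in green fruit are known to include those of photosynthesis, starch synthesis, wall assembly, alkaloid synthesis and defence of unripe tissue.

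The arrays had medians of 9.73 in WT and 9.69 in AtJUB1-OX at MG, and of 9.74 and 9.70 at B+7. Psy1, the fruit phytoene synthase that makes the first carotenoid, was higher at B+7 by 2.44 in WT and by 2.84 in AtJUB1-OX, the direction of the labelled stages. The array also holds 63 reporter probe sets for transgene sequences, and 2 of them exceeded WT by at least 2-fold in both AtJUB1-OX samples. The stronger of them read 4.53 and 5.06 in WT and 12.04 and 12.23 in AtJUB1-OX, at MG and B+7. For spiked control transcripts the median genotype difference was -0.02 at MG and -0.06 at B+7, and their median stage difference was 0.21 in WT and 0.19 in AtJUB1-OX. At B+7 AtJUB1-OX exceeded WT on the ribosomal RNA controls, by 1.2 for 25S and 0.48 for 17S, and their part in the genotype differences below was not tested.

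As a measure of technical spread, the probe sets of a single gene were compared over the 82 genes that have several. The pooled SD between probe sets was 0.61 for the change in WT, 0.74 for the change in AtJUB1-OX, and 0.26 for the genotype difference at either stage. It does not cover differences between fruits or arrays. For 15 of the 64 genes, the smaller of the changes in the 2 genotypes was under 0.74 in size, that is, within this spread. Just inside the cut-off were SAM3 with -0.60 in WT, PSBP with -0.60 in WT and PLDb1 with -0.59 in AtJUB1-OX. Just outside it were Wfi1 with -0.57 in WT, EIL2 with -0.56 and cMDH with -0.56. Wfi1, an NADPH oxidase gene, read 11.75 in WT and 11.97 in AtJUB1-OX at MG, and 11.18 and 10.43 at B+7. EIL2, a transcription factor of ethylene signalling, read 10.06 and 10.04 at MG, and 9.50 in WT and 8.71 in AtJUB1-OX at B+7. For cMDH, a malate dehydrogenase, the values were 6.02 and 5.61 at MG, and 5.46 in WT and 4.04 in AtJUB1-OX at B+7. All 3 missed the cut-off in WT only, and their lowest value was that of AtJUB1-OX at B+7.

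The median change of the 64 genes was -1.43 in WT and -1.55 in AtJUB1-OX, against 0.04 and 0.00 over all genes with a symbol. In both genotypes 39 of the genes were at least 2-fold lower at B+7 and 13 at least 4-fold. Both MG values lay above both B+7 values for 63 of the 64 genes, against 33.8% of all genes with a symbol, a separation that the choice of genes largely fixes. The exception was CHI17, whose value in AtJUB1-OX at B+7 exceeded that in WT at MG. At MG their median signal was 10.12 in WT and 10.07 in AtJUB1-OX, against 10.31 and 10.39 over all genes with a symbol.

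**Figure D1:**
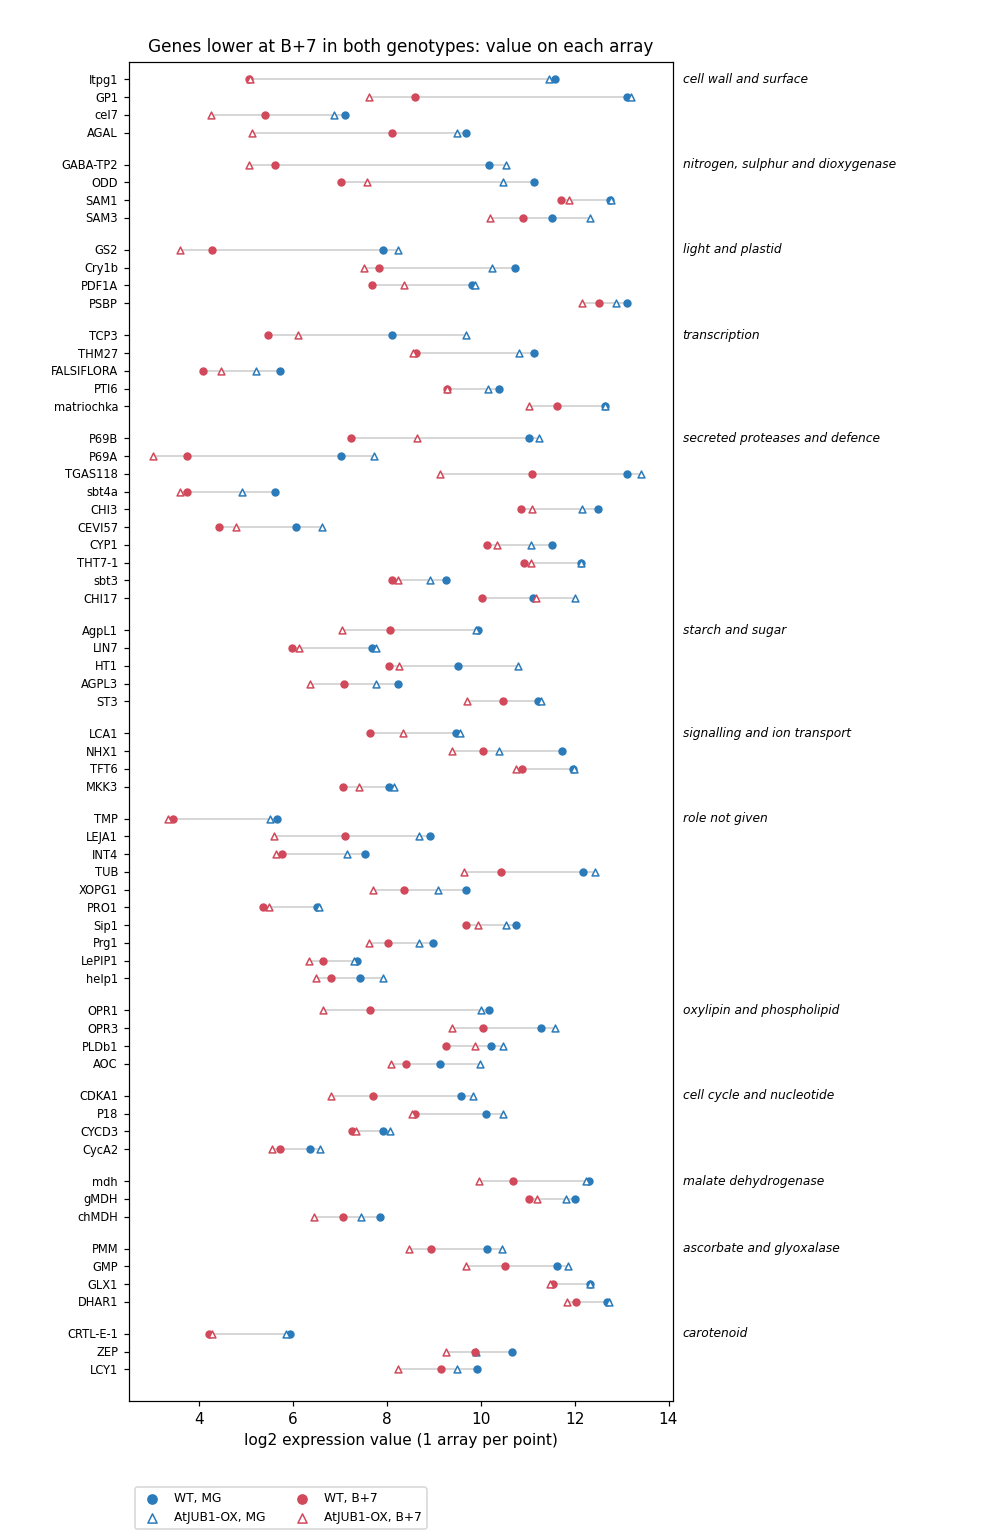
Log2 signal of each of the 64 genes on the 4 arrays, grouped by role, with circles for WT, triangles for AtJUB1-OX, blue for MG and red for B+7. Each point is 1 array, and ltpg1, GABA-TP2 and GP1 show the widest gap between the stages.

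Genes of the fruit surface and cell wall included ltpg1 and GP1, which with GABA-TP2 had the widest gaps in both genotypes. ltpg1, which encodes a lipid transfer protein of the kind linked to cuticle formation, read 11.58 in WT and 11.44 in AtJUB1-OX at MG, and 5.07 and 5.09 at B+7. Its signal was thus 90.9-fold lower in WT and 82.1-fold lower in AtJUB1-OX. Both B+7 values were about as low as the reporter probe set above in WT at B+7, 5.06, so these folds and the closeness of the genotypes at B+7 are read near background. GP1, the non-catalytic beta subunit that binds polygalacturonase in the wall, read 13.13 and 13.21 at MG, and 8.60 in WT and 7.62 in AtJUB1-OX at B+7. Among the genes it was one of the brightest at MG, and it was 23.0-fold lower at B+7 in WT and 48.3-fold lower in AtJUB1-OX.

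The other wall genes separated the genotypes at B+7 only. AGAL, an alpha-galactosidase that removes galactose from sugars and wall polymers, read 9.69 in WT and 9.50 in AtJUB1-OX at MG, then 8.10 in WT and 5.13 in AtJUB1-OX at B+7. The B+7 array of AtJUB1-OX stood alone, 2.97 below that of WT, the widest genotype difference of the 64 genes. Its AtJUB1-OX value at B+7 was about as low as those of ltpg1, so this difference too is read near background. The endoglucanase gene cel7 read 7.10 and 6.87 at MG, and 5.40 in WT and 4.26 in AtJUB1-OX at B+7. Of its relatives, Cel1 and Cel2 are endoglucanases of ripening and abscission. They were higher at B+7 by 3.45 and 5.01 in WT and by 3.62 and 5.27 in AtJUB1-OX. CEL8 changed by -1.34 in WT and -0.34 in AtJUB1-OX, cel5 by 0.06 and 0.59, and Cel3 by 0.58 and 0.22. In the list of cell wall and secreted proteins, 3 of 14 measured genes were lower in both genotypes and 5 were higher. The 3 were ltpg1, GP1 and cel7, and AGAL was not on that list. Over all 627 genes with a symbol, 85 (13.6%) were lower and 87 higher. The lists and families given here hold few genes, and their counts were not tested against these shares.

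Next came genes of nitrogen and sulphur metabolism and a dioxygenase. GABA-TP2 belongs to the gamma-aminobutyrate transaminases and is also named GAME12, a step of steroidal glycoalkaloid synthesis. It read 10.18 in WT and 10.54 in AtJUB1-OX at MG, and 5.62 and 5.06 at B+7, where the AtJUB1-OX value was near background. ODD, named for an oxoglutarate-dependent dioxygenase, read 11.13 and 10.47 at MG, and 7.02 in WT and 7.58 in AtJUB1-OX at B+7. The order of the genotypes was opposite in these genes: the stage gap of GABA-TP2 was wider in AtJUB1-OX (44.7-fold against 23.7-fold), and that of ODD was wider in WT (17.3-fold against 7.39-fold). In the RefSeq gene order, 7 genes lie between ODD and GABA-TP2. The gene set aside as gad2 read 11.25 in WT and 11.70 in AtJUB1-OX at MG, and 7.60 and 6.21 at B+7. The relatives of GABA-TP2 in the transaminase family, which break down gamma-aminobutyrate, did not share its gap, with changes of -0.61 in WT and -0.09 in AtJUB1-OX for GABA-TP3 and 0.11 and 0.26 for GABA-TP1.

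SAM1 and SAM3 encode S-adenosylmethionine synthetases, which supply the methyl donor and ethylene precursor, and they were the only synthetases of this family measured. SAM1 changed by -1.04 in WT and -0.91 in AtJUB1-OX. SAM3 read 11.51 in WT and 12.33 in AtJUB1-OX at MG, and 10.91 and 10.21 at B+7, so that AtJUB1-OX held both the highest and the lowest value. In the list of nitrogen and amino acid genes, 4 of 12 measured genes were lower in both genotypes and 2 higher. Over all genes with a symbol the share lower was 13.6%. The 4 were SAM1, SAM3, gad2 and a gene matched by the symbol PRO1 alone. A different gene with that symbol, also counted among the 12, changed by 0.01 in WT and 0.40 in AtJUB1-OX, and whether either is an amino acid gene is uncertain.

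Among the light and plastid genes, GS2 carries the symbol of the plastid glutamine synthetase. It read 7.92 and 8.24 at MG, and 4.28 in WT and 3.60 in AtJUB1-OX at B+7, a change of -3.64 and -4.64. Cry1b, a blue light receptor, read 10.74 in WT and 10.24 in AtJUB1-OX at MG, and 7.83 and 7.51 at B+7. The other cryptochromes did not show this gap: CRY1A changed by -0.38 in WT and 1.04 in AtJUB1-OX, and CRY2 by -0.04 and 0.00. PDF1A, a peptide deformylase that trims new organelle proteins, changed by -2.11 in WT and -1.52 in AtJUB1-OX, while PDF1B was higher by 0.67 and 0.82. PSBP, a subunit of the water-splitting complex of photosystem II, read 13.12 and 12.88 at MG, and 12.53 in WT and 12.15 in AtJUB1-OX at B+7. It stayed among the brightest of the genes at both stages. Of the chloroplast list, which leaves out the CAB genes, psaD and PsbQ, 3 genes were measured and none changed by 1.5-fold in both genotypes. Among those left out, CAB4, CAB5 and CAB6A changed by -2.14, -2.49 and -3.64 in WT and by -1.39, -0.98 and -3.86 in AtJUB1-OX, and PsbQ by -2.79 and -2.59. Of 4 water-splitting subunits measured, PSBP and PsbQ were lower in both genotypes, against 13.6% of all genes with a symbol. PSBP was not on the chloroplast list.

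The transcription factors were led by TCP3, a member of the TCP family that restrains cell division in leaves. TCP3 read 8.10 in WT and 9.68 in AtJUB1-OX at MG, and 5.47 and 6.11 at B+7, with AtJUB1-OX above WT at both stages. THM27, a MYB factor, read 11.14 and 10.80 at MG and 8.61 and 8.55 at B+7, and the genotypes lay close together at B+7. None of the 3 other THM genes measured was 1.5-fold lower in both genotypes. FALSIFLORA, the tomato counterpart of LEAFY, PTI6, an ERF-type factor that binds the Pto kinase, and matriochka, a regulator of meristem activity, changed by -1.04 to -1.64 in WT and by -0.76 to -1.63 in AtJUB1-OX. FALSIFLORA was at most 5.72 on any array, close to the background given below. Of the 16 genes matched by symbol in the list of transcription factors, 0 were lower in both genotypes and 5 higher. The share over all genes with a symbol was 13.6% lower. TCP3, THM27, PTI6 and matriochka were not on that list. FALSIFLORA was on it under other symbols only and so was not counted.

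Secreted proteases and defence proteins formed the largest group with a known role, 10 genes. P69B and P69A encode subtilisin-like proteases secreted by wounded or infected tissue. P69B read 11.03 in WT and 11.24 in AtJUB1-OX at MG, and 7.24 and 8.64 at B+7. P69A read 7.01 and 7.73 at MG, and 3.74 in WT and 3.01 in AtJUB1-OX at B+7. The genotypes were thus ordered in opposite ways at B+7 for these related genes. The P69A values at B+7 were near background, so the order of its genotypes there is one between dim signals. Close copies can share signal on such probes, and this was not tested for the P69 genes. TGAS118, a defensin-like protein, was bright at MG with 13.13 and 13.42, and at B+7 read 11.10 in WT and 9.13 in AtJUB1-OX. The gap was 4.09-fold in WT and 19.6-fold in AtJUB1-OX. Of 6 subtilisin-like proteases measured, 4 were lower in both genotypes, P69A, P69B, sbt3 and sbt4a, against 13.6% of all genes with a symbol. SBT1 changed by -0.13 in WT and 0.69 in AtJUB1-OX, and SBT2 by 1.29 and 0.21.

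The remaining defence genes showed smaller gaps. CHI3 and CHI17 encode chitinases, which cut the chitin of fungal walls. CHI17 read 11.11 in WT and 12.01 in AtJUB1-OX at MG, and 10.04 and 11.17 at B+7, with the genotypes more than 1.5-fold apart at both stages. CHI3 changed by -1.64 in WT and -1.06 in AtJUB1-OX. The other chitinases measured did not follow, since CHI9 changed by 0.44 and -1.71, and CHI14 by 1.13 and 0.42. CYP1, a cysteine protease induced by drought, THT7-1, which joins tyramine to hydroxycinnamic acids, and CEVI57, on the list of wound defence genes, changed by -1.21 to -1.62 in WT and by -0.72 to -1.82 in AtJUB1-OX. In that list, 1 of 3 measured genes was lower in both genotypes, against 13.6% of all genes with a symbol. P69A, P69B, CHI3, CHI17 and PTI6 belong by known family to the pathogenesis-related or ERF genes. They stayed in because the families to be set aside were matched by symbol, and leaving them out gave 59 genes.

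Starch and sugar genes followed. AgpL1 and AGPL3 encode large subunits of ADP-glucose pyrophosphorylase, which makes the building block of starch. AgpL1 read 9.95 in WT and 9.90 in AtJUB1-OX at MG, and 8.06 and 7.05 at B+7, and AGPL3 changed by -1.15 in WT and -1.42 in AtJUB1-OX. The small subunit AGP-S2 changed by 0.21 and 0.02, so the subunits of this enzyme did not move alike. HT1, a hexose transporter, read 9.52 in WT and 10.79 in AtJUB1-OX at MG, and 8.05 and 8.25 at B+7, with the genotypes apart at MG only. The sugar transporter ST3 changed by -0.74 in WT and -1.58 in AtJUB1-OX, and the invertase LIN7 by -1.71 and -1.63. Among 8 sugar transporters measured, HT1 and ST3 were the only ones lower in both genotypes, although ST2 changed by -2.62 in WT against 0.07 in AtJUB1-OX. In the list of starch and sucrose genes, 3 of 15 measured genes were lower in both genotypes and 1 higher. The 3 were AgpL1, AGPL3 and LIN7, and HT1 and ST3 were not on that list. Over all 627 genes with a symbol, 13.6% were lower and 87 were higher.

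Signalling and ion transport genes included LCA1, a calcium pump that loads inner membranes, and NHX1, an exchanger that moves sodium or potassium into vacuoles. LCA1 changed by -1.83 in WT and -1.21 in AtJUB1-OX. NHX1 read 11.73 in WT and 10.39 in AtJUB1-OX at MG, and 10.05 and 9.39 at B+7, so that AtJUB1-OX was below WT at both stages. Its relative NHX2 changed by 0.15 and 0.18. TFT6, an adaptor protein that binds phosphorylated partners, and MKK3, a kinase of a signalling cascade, changed by -1.09 and -0.97 in WT and by -1.23 and -0.75 in AtJUB1-OX. In the list of membrane transport genes 1 of 10 was lower in both genotypes and 1 higher, and in the signalling list 1 of 17 and 1. The genes lower were LCA1 and TFT6, while NHX1 and MKK3 were not on these lists. The share lower over all genes with a symbol was 13.6%.

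Oxylipin and phospholipid genes held steps towards jasmonate, a wound and defence hormone. OPR1, an oxophytodienoate reductase, read 10.18 in WT and 10.00 in AtJUB1-OX at MG, and 7.63 and 6.64 at B+7. OPR3, the reductase that acts in jasmonate synthesis, changed by -1.23 in WT and -2.21 in AtJUB1-OX, and AOC, allene oxide cyclase of the step before it, by -0.72 and -1.89. In all 3 genes the gap was wider in AtJUB1-OX by at least 1.5-fold. The other measured genes of the pathway went different ways between the stages, but their change too was more negative in AtJUB1-OX than in WT. The difference was -3.78 for AOS, -1.68 for loxD and -1.64 for opr2. AOS, allene oxide synthase, changed by 0.50 in WT and -3.28 in AtJUB1-OX, loxD by 1.38 and -0.31, and opr2 by 2.65 and 1.01. PLDb1, a phospholipase D that frees phosphatidic acid from membranes, read 10.22 and 10.47 at MG, and 9.27 in WT and 9.89 in AtJUB1-OX at B+7.

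Cell cycle and nucleotide genes were 4. CDKA1, a kinase that drives entry into division, changed by -1.88 in WT and -3.01 in AtJUB1-OX, and P18, a dUTPase that keeps uracil out of DNA, by -1.51 and -1.93. The cyclins CYCD3 and CycA2 changed by -0.65 and -0.63 in WT and by -0.71 and -1.02 in AtJUB1-OX. Of 10 cyclins and cyclin-dependent kinases measured, 3 were lower in both genotypes and 0 higher, against 13.6% lower over all genes with a symbol. The cell cycle list, which shares 8 of its 10 measured genes with these, holds the same 3. The gap was wider in AtJUB1-OX by at least 1.5-fold for CDKA1 only. For CYCD3, CycA2 and P18 the genotypes' changes differed by 0.06 to 0.42, near or within the spread of 0.34 between probe sets.

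Malate dehydrogenases interconvert malate and oxaloacetate in several compartments. The gene named mdh changed by -1.61 in WT and -2.28 in AtJUB1-OX, the glyoxysomal gMDH by -0.98 and -0.61, and the chloroplast chMDH by -0.78 and -1.02. The mitochondrial mMDH1 changed by 0.03 and -0.13. Of 5 such genes, 3 were therefore on the list, against 13.6% of all genes with a symbol, and cMDH lay just outside it.

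Among the genes of ascorbate and glyoxalase metabolism, PMM, GMP and DHAR1 had several probe sets, which gave further readings of the same transcripts. PMM, phosphomannomutase, and GMP, GDP-mannose pyrophosphorylase, act early in ascorbate synthesis, and DHAR1 recycles oxidized ascorbate. GMP read 11.62 and 11.85 at MG, and 10.52 in WT and 9.69 in AtJUB1-OX at B+7. Its other probe set changed by -1.14 in WT and -1.55 in AtJUB1-OX, against -1.10 and -2.16 on the one chosen. PMM read 10.14 and 10.45 at MG, and 8.94 in WT and 8.46 in AtJUB1-OX at B+7, a change of -1.19 and -1.99. Its other probe sets gave smaller changes, -0.60 and -0.24 in WT and -0.91 and -0.81 in AtJUB1-OX. DHAR1 read 12.70 and 12.73 at MG, and 12.02 and 11.83 at B+7, and its other probe set changed by -0.93 in WT and -1.23 in AtJUB1-OX. Over the 4 genes with several probe sets, the fourth being INT4, 5 probe sets were not used for choosing. Of these, 4 were at least 1.5-fold lower in both genotypes, and the exception was that of PMM with -0.24 in WT. All 5 read the same RNA of genes chosen for being lower, so the count is a description. GLX1, glyoxalase I, which clears methylglyoxal, changed by -0.78 and -0.87. The other ascorbate genes measured, GLDH, DHAR2 and MDHAR, changed by -0.33, 0.07 and 0.22 in WT and by -0.46, 0.45 and 0.12 in AtJUB1-OX.

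In the carotenoid pathway, 3 enzymes that act on lycopene, the red pigment of ripe fruit, or on its products were on the list. CRTL-E-1, lycopene epsilon-cyclase, changed by -1.74 in WT and -1.58 in AtJUB1-OX, with both B+7 values near background (4.20 and 4.28). LCY1, lycopene beta-cyclase, changed by -0.78 and -1.27, and ZEP, zeaxanthin epoxidase, by -0.78 and -0.64. Of 6 such genes measured, these 3 were lower in both genotypes and 0 were higher by 1.5-fold in both. The other 3 changed by 0.29 and 0.58 for VDE, 0.50 and 1.14 for CrtR-b1, and 0.72 and -0.62 for NSY. Before lycopene, 0 of 4 genes were lower in both genotypes and 3 were higher, Psy1, ZDS and PDS. ZDS was higher by 1.11 in WT and 1.24 in AtJUB1-OX, and PDS by 0.59 and 0.97, whereas PSY2 changed by 0.42 and 0.09. In the wider list of isoprenoid and carotenoid enzymes, LCY1 alone of the 8 genes matched by symbol was lower in both genotypes and 4 were higher, against 13.6% lower over all genes with a symbol. CRTL-E-1 and ZEP carry symbols other than those on that list and were not counted in it. In the phenylpropanoid list, 0 of 4 genes matched by symbol were lower and 2 higher, and THT7-1 went uncounted for the same reason. These families were put together after the values were seen and are given as descriptions.

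**Figure D2:**
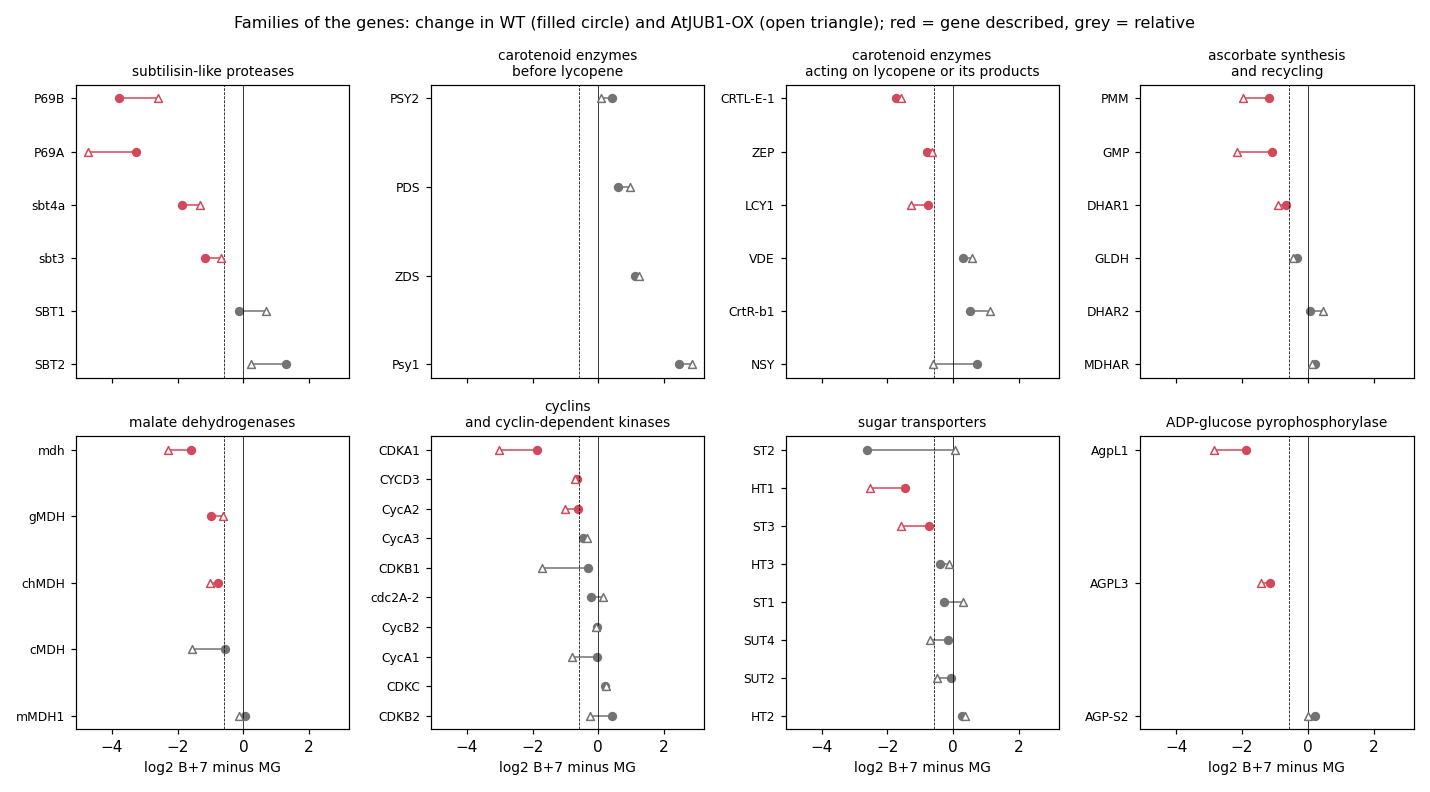
Change from MG to B+7 on the log2 scale for 8 families, with WT as filled circles and AtJUB1-OX as open triangles. Genes described here are red, relatives are grey and the dashed line is the cut-off of -0.585; the carotenoid enzymes before lycopene lie to the right of 0 and CRTL-E-1, ZEP and LCY1 to the left.

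For the remaining 10 genes no role is given here. TMP was dim, with 5.67 in WT and 5.52 in AtJUB1-OX at MG, and 3.44 and 3.33 at B+7. LEJA1 read 8.93 and 8.68 at MG, and 7.10 in WT and 5.59 in AtJUB1-OX at B+7, where AtJUB1-OX was the lowest array by a wide margin. INT4 read 7.54 in WT and 7.16 in AtJUB1-OX at MG, and 5.78 and 5.63 at B+7, and its other probe set changed by -1.90 and -1.52 against -1.77 and -1.53. TUB, XOPG1, PRO1, Sip1, Prg1, LePIP1 and help1 changed by -0.61 to -1.76 in WT and by -0.60 to -2.79 in AtJUB1-OX.

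**Figure D3:**
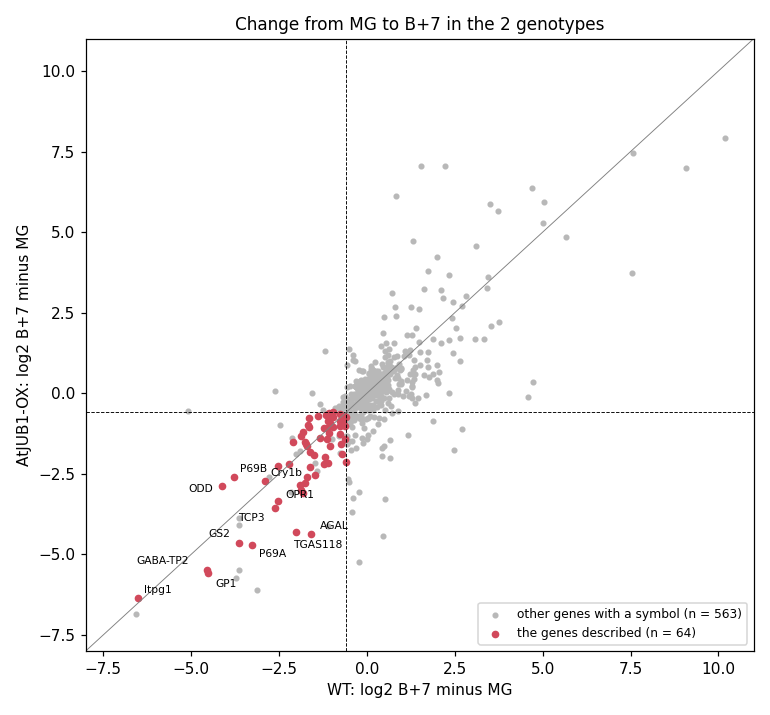
Change from MG to B+7 on the log2 scale in WT (horizontal axis) and AtJUB1-OX (vertical axis), with the 64 genes in red and 563 other genes with a symbol in grey. The dashed lines are the cut-off of -0.585, grey points beyond both are the 21 genes set aside, and AGAL and TGAS118 lie far below the line of equal change.

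The genotype differences were not used to choose the genes, although they come from the same 4 arrays as the changes. At MG the 64 genes were evenly spread around 0, with a median difference of 0.01 between AtJUB1-OX and WT. Past 1.5-fold on the higher side in AtJUB1-OX were 6 of them, against 12.9% of all genes with a symbol (6.67% of all probe sets). The 6 were TCP3 (1.58), HT1 (1.27), CHI17 (0.90), AOC (0.84), SAM3 (0.82) and P69A (0.72). At least 1.5-fold lower were 5, against 9.09% of all genes with a symbol (6.74% of all probe sets). These were NHX1 (-1.34), ZEP (-0.77), sbt4a (-0.71), ODD (-0.66) and XOPG1 (-0.61). The shares at MG, 9.38% higher and 7.81% lower, were close to the background in both directions.

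At B+7 the median difference was -0.18, against -0.04 over all genes with a symbol and 0.00 over all probe sets. The signal was at least 1.5-fold lower in AtJUB1-OX for 23 of the 64 genes, or 35.9%, against 12.4% of all genes with a symbol and 6.13% of all probe sets. The widest differences after AGAL were those of TGAS118 (-1.97), LEJA1 (-1.51) and AgpL1 (-1.01), together with cel7 as given above. The AtJUB1-OX values of AGAL and cel7 at B+7 were near background. The other 18, all less than 2-fold apart, were OPR1, GP1, LCY1, CDKA1, GMP, TUB, ST3, AGPL3, mdh, P69A, SAM3, GS2, XOPG1, OPR3, NHX1, ZEP, chMDH and matriochka, between -0.99 and -0.59. At least 1.5-fold higher were 6 genes, or 9.38%, against 4.47% of all genes with a symbol and 3.53% of all probe sets. They were P69B (1.40), CHI17 (1.14), LCA1 (0.69), PDF1A (0.67), TCP3 (0.64) and PLDb1 (0.62). Since the genes had to be low on the AtJUB1-OX array at B+7, that array was part of the choice, and its share in the excess at B+7 cannot be told apart from a genotype difference. The same condition was set for the WT array at B+7.

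NHX1, ZEP and XOPG1 were lower in AtJUB1-OX at both stages, and TCP3 and CHI17 were higher at both. For P69A and SAM3, AtJUB1-OX exceeded WT at MG and fell short of it at B+7. At both stages 31 genes (48.4%) lay within 1.5-fold of WT, against 67.3% of all genes with a symbol. The same arrays were part of the choice, so nothing is read from this share against the background.

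**Figure D4:**
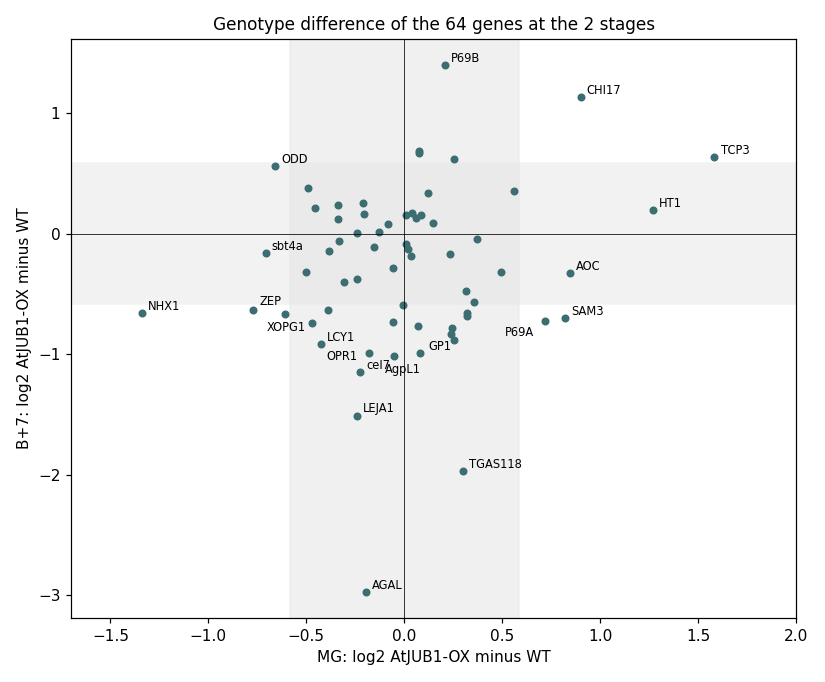
AtJUB1-OX minus WT on the log2 scale at MG (horizontal axis) and B+7 (vertical axis) for the 64 genes, 1 point a gene. The grey bands span less than 1.5-fold, and more genes lie below the band at B+7 (23) than above it (6).

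The change itself was compared between the genotypes. In AtJUB1-OX it was more negative than in WT by at least 1.5-fold for 23 of the 64 genes, against 21.9% of all genes with a symbol, and less negative for 7, against 10.0%. Both changes were used to choose the genes, so these counts are a description and nothing is read from them against the background. The pooled SD between probe sets for this quantity was 0.34. Of the 23 genes with the wider gap in AtJUB1-OX, 17 were also at least 1.5-fold lower there at B+7, an overlap that is partly built in because the B+7 difference is a term of this quantity. The other 6 were GABA-TP2, TCP3, HT1, PMM, AOC and help1. For TCP3, HT1 and AOC the wider gap came with a higher value in AtJUB1-OX at MG.

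Some values at B+7 were near the background of the array. The 90th percentile of the 63 reporter probe sets over the arrays was 4.93, and their median 3.51. At or below 4.93 were 7 of the 64 genes in WT and 8 in AtJUB1-OX at B+7, but 0 in WT and 1 in AtJUB1-OX at MG. For such genes, namely GS2, P69A, sbt4a, TMP, CRTL-E-1, FALSIFLORA, CEVI57 and, in AtJUB1-OX only, cel7, a difference at B+7 is one between dim signals. Just above 4.93 in AtJUB1-OX at B+7 were GABA-TP2 (5.06), ltpg1 (5.09) and AGAL (5.13). At MG, probe sets at the 3' end of control transcripts exceeded those at the 5' end more in AtJUB1-OX than in WT, by 0.32 for ef1a, 0.18 for actin and 0.13 for GAPDH, and its part in the genotype differences was not tested. In bulk tissue, fewer cells of a type and less RNA per cell cannot be told apart.

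The genes lay on the genome mostly apart. In the RefSeq gene order, which matched 63 of the 64 genes, CHI3 and CHI17 were direct neighbours, 2 genes lay between P69A and P69B, and 8 between sbt4a and sbt3. Neighbouring copies of a family can share signal on such probes. This was not tested for these pairs, so their values may not be independent readings.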

How the data were processed

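The authors deposited 1 table of log2 expression values per probe set, background-corrected, normalized and summarized. GCRMA and RMA appear in the processing notes of the submitters. Which of them made the values, and in what version, is not given in the sources used here. Of 10209 probe sets, 108 controls were left out. The platform annotation of 2007 names 1 gene for 909 of the 10101 others, giving 803 genes, of which 176 carry a bare locus number and 627 a symbol. RefSeq names came from assembly SLM_r2.1.

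A gene was read on its brightest probe set. Differences of log2 values were counted at 1.5-fold, with no test. The number of arrays limits the precision. Members and lists were chosen with earlier results of these data known. Every gene is named, and values on every array are given for those at least 4-fold lower in both genotypes, at least 2-fold different between genotypes, with several probe sets, or nearest the cut-off. Relatives outside the list were named after their values were seen.

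Alternatives were median centring, quantile normalization, loess (span 0.3), a floor, a signal filter, probe set means, 2-fold, and locus-number genes. Counting was tested on simulated data with noise below the spread between probe sets, which checks the counting and not the error of these data. Python 3.11.15, pandas 2.3.3, numpy 2.4.6, statsmodels 0.14.6, matplotlib 3.10.9, R 4.3.3 and limma 3.58.1 were used.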

Additional observations from a re-analysis of the deposited data

Results flagged for a closer look

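P69A and SAM3 had genotype differences of opposite direction at the 2 stages, each past 1.5-fold. AtJUB1-OX minus WT was 0.72 at MG and -0.72 at B+7 for P69A, a subtilisin-like protease gene. For SAM3, an S-adenosylmethionine synthetase gene, it was 0.82 at MG and -0.70 at B+7. With 1 array per condition the difference between the stages was not tested. Both B+7 values of P69A were below the 90th percentile of the reporter probe sets.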

How the results depend on the processing

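Over 9 alternative settings, 78 of 90 values stayed within 1.5 times the main count or within the pooled spread between probe sets, and 12 moved. A reversal could not be found this way, since counts have no sign and the rule fixes the sign of the changes. The small medians of the genotype differences were not checked for sign. With locus-number genes counted, that at MG was -0.01 against 0.01. With only genes above the median signal of 9.70, 25 genes remained, and AtJUB1-OX was past the cut-off upwards for 2 and downwards for 2 at MG, and upwards for 2 and downwards for 11 at B+7. With a 2-fold cut-off throughout, 39 genes remained, of which 2 were higher and 0 lower at MG, and 1 higher and 5 lower at B+7. A floor at the 25th percentile (log2 7.34) left 47 genes, 15 of them lower at B+7. With locus-number genes counted, 85 genes met the rule and 9 were lower at MG.

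Of the 64 genes, 60 remained under median centring, quantile normalization and loess alike, and 45 also with the floor. Quantile normalization lost CycA2, PSBP, PLDb1 and help1, and loess lost PSBP. Leaving out P69A, P69B, CHI3, CHI17 and PTI6, an alternative chosen after seeing the data, left 59. The planned description of promoter motifs was not run. No paired analysis was possible because the labels give no replicate numbers that the groups share, and each condition has 1 array. Dim signals at B+7 limit the fold changes of the genes near background.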
